A study of Mus musculus with 8 samples.

Results

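Mpo-low cells with primary granule RNA made up 1073 of the 17384 cells kept from a culture of mouse bone marrow with or without deoxycholic acid. They were chosen by their own transcripts: a summed level of Elane, Mpo, Prtn3 and Ctsg of at least 100 unique molecular identifiers (UMIs) per 10000 UMIs of the cell, Mpo below 8 and Ngp and Camp together below 150. A cell was kept with 300 or more detected genes and with mitochondrially encoded genes at no more than 10% of its UMIs. Whole bone marrow cells had been grown for 1 week on AFT024, a line of irradiated fibroblasts from mouse embryonic liver that serves as a feeder layer, in long-term culture medium with hydrocortisone. The media control received nothing more, and the other group received deoxycholic acid at 35 µM, a secondary bile acid that gut bacteria produce. Lineage-negative cells were sorted from both cultures before capture, so all shares describe cells that passed that gate. The sources used here do not state the strain, age or sex of the mice.

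In the labels each group has 4 samples, but the cell names carry only the group. Each group was therefore treated as 1 library, no test between them could be made, and no difference given here has a replicate check. The media control held 666 Mpo-low cells with 16803608 UMIs, and the deoxycholic acid library held 407 with 7784034. The median Mpo-low cell had 24424 and 18364 UMIs and 3824 and 3299 detected genes, so the control cells were the deeper ones. Intervals are exact 95% intervals and cover counting error only. The libraries shared 25 barcodes, of which 2 were Mpo-low cells in the media control and 2 were Mpo-low cells in the deoxycholic acid library, and no shared barcode was Mpo-low in both. Levels are counts per 1000000 UMIs (CPM) over the summed cells of a library.

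Neutrophils mature in the marrow from granulocyte-monocyte progenitors through promyelocytes and myelocytes, and they fill their granules in that order. Promyelocytes make the primary (azurophil) granules, which hold myeloperoxidase (Mpo) and the serine proteases neutrophil elastase (Elane), proteinase 3 (Prtn3) and cathepsin G (Ctsg). Ngp, a neutrophilic granule protein, and Camp, the cathelicidin precursor, are loaded into secondary granules in the next step. The C/EBP family of transcription factors and PU.1, encoded by Spi1, drive these genes, with C/EBP epsilon needed for the passage to secondary granules.

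The 250 bases before the start of the 4 primary granule genes that chose the cells, and of Fcnb, the chosen marker whose level differed most between the libraries, show which of these factors' letters lie close to each gene. They come from RefSeq on build GRCm38.p6, matched by symbol for 5 of 5 genes, and read 5′ to 3′ on the gene's own strand. Capitals mark each match on either strand to the PU.1 core GAGGAA or the C/EBP motif TTGCNNAA.
Elane, chr10:79886062-79886311, plus strand: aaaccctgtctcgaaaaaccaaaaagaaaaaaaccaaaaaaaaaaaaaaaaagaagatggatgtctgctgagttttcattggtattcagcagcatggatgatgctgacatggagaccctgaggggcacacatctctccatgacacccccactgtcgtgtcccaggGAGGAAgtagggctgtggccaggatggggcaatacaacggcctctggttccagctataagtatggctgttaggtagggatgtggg
Prtn3, chr10:79879417-79879666, plus strand: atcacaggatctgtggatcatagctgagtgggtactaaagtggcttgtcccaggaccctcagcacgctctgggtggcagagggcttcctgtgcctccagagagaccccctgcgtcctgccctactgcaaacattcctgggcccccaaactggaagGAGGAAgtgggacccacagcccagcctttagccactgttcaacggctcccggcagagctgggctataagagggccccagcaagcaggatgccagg
Ctsg, chr14:56102575-56102824, minus strand: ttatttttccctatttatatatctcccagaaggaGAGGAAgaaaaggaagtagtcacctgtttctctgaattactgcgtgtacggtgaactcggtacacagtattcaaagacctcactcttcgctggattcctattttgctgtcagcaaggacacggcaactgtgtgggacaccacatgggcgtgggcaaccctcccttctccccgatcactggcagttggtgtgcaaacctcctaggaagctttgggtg
Mpo, chr11:87793534-87793783, plus strand: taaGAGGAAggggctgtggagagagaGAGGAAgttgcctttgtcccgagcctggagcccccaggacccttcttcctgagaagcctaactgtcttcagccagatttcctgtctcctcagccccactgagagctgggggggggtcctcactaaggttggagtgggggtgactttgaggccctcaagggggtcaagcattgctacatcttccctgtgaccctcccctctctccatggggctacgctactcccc
Fcnb, chr2:28084879-28085128, minus strand: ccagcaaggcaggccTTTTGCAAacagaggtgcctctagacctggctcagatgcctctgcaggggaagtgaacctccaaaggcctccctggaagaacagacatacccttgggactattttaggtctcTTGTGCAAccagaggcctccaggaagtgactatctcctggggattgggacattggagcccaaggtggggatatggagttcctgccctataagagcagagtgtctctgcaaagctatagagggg

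The PU.1 core occurred once each before Elane, Prtn3 and Ctsg and at 2 places before Mpo, and the same letters were found in 23.1% of 27025 promoters of that length. In Elane the match began 85 bases before the start, in Prtn3 95 bases, in Ctsg 216 bases, and in Mpo 247 and 224 bases. The C/EBP motif had no match before these 4 genes and 2 matches before Fcnb, which began 235 and 123 bases before the start, while 9.55% of all promoters held it. No match overlapped another. These are matches of letters and not measured binding.

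The label of promyelocyte-like cells was checked against Elane, Prtn3, Orm1, Fcnb and Nkg7. Elane and Prtn3 were used to choose the cells and so had to be high. Nkg7, a granule-associated membrane protein, stood at 142 and 135 CPM in Mpo-low cells of the media control and deoxycholic acid libraries, against 51.9 and 45.6 in kept cells below the primary granule sum. Orm1, an acute phase glycoprotein, stood at 189 and 215 CPM against 165 and 145 in those other cells. Fcnb, ficolin B, a lectin that binds microbial sugars, was lower in Mpo-low cells than in those other cells, at 215 and 389 against 324 and 409 CPM. Of the 3 markers the rule did not use, Nkg7 and Orm1 were thus higher and Fcnb lower than in the other cells, so the cells are called Mpo-low cells here.

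Their nearest neighbours were cells with the same primary granule sum that lay beyond a border of the rule. Mpo-high cells had Ngp and Camp below 150 and Mpo of at least 8, and Ngp and Camp high cells had both together at 150 or more. None of Nkg7, Orm1 and Fcnb was highest in Mpo-low cells when set beside these neighbours. Nkg7 was 282 and 226 CPM in Mpo-high cells and 230 and 223 in Ngp and Camp high cells. Orm1 was 191 in both libraries of Mpo-high cells, and 316 and 298 in Ngp and Camp high cells. Fcnb was 164 and 257 CPM in the former and 393 and 676 in the latter. The borders cut through a continuous range. Just inside the Mpo border, at 6 to 8 UMIs per 10000, the median Elane level was 65.2 in 190 control cells and 62.8 in 133 deoxycholic acid cells. Just outside it, at 8 to 10, median Elane was 70.1 in 210 and 55.7 in 122 cells. At the Ngp and Camp border, median S100a8 was 535 and 636 per 10000 in cells from 120 to 150, and 533 and 623 in cells from 150 to 180 with Mpo below 8. At the border of the primary granule sum, median Ctsg was 30.4 and 21.2 per 10000 in cells from 100 to 120. From 80 to 100 it was 28.8 and 19.5. Elane and Ctsg are part of that sum, so their closeness is in part set by the rule. For S100a8, outside the rule, the medians were 312 and 434 from 100 to 120, and 319 and 408 from 80 to 100. At the Mpo border its medians were 322 and 399 just inside, and 303 and 317 just outside. Mpo-low cells were not without Mpo: it stood at 416 and 441 CPM, against 1891 and 2244 in Mpo-high cells and 128 and 150 in kept cells below the primary granule sum.

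**Figure D1:**
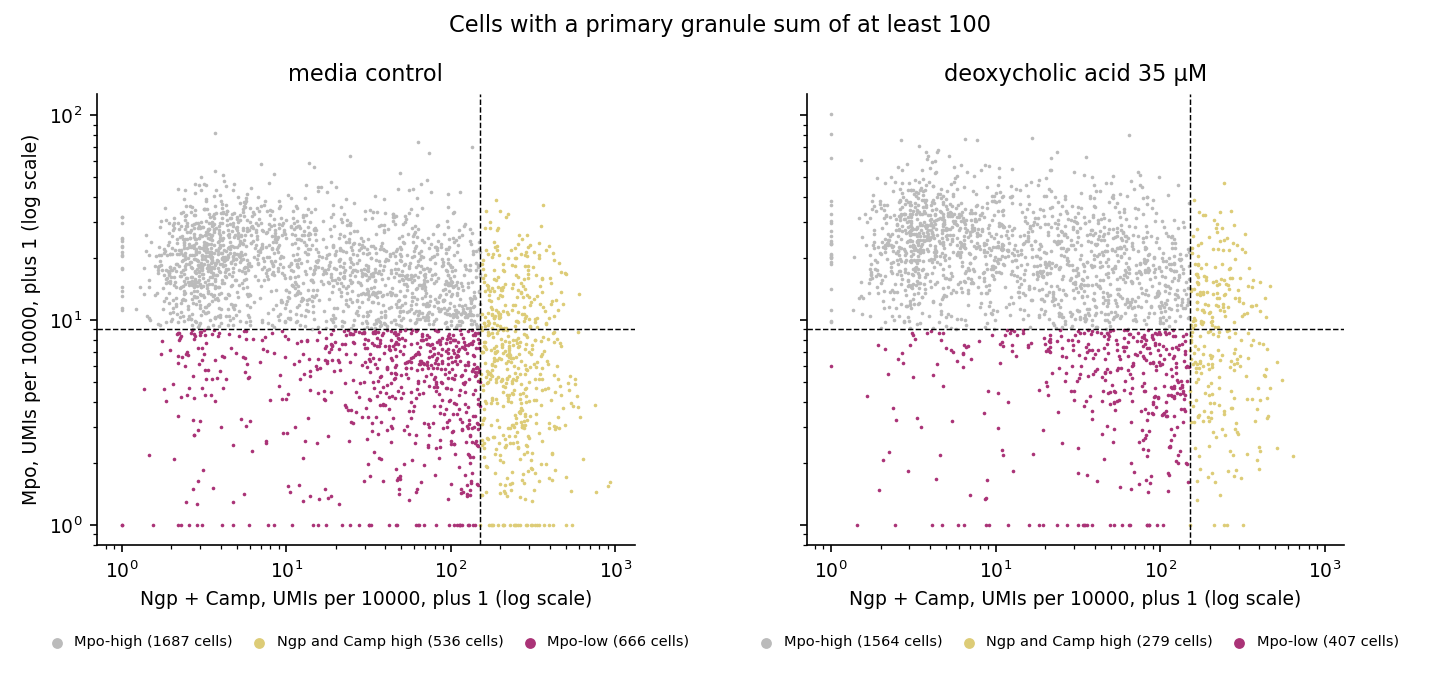
Mpo against Ngp plus Camp, both in UMIs per 10000 plus 1 on log scales, for each cell with a primary granule sum of at least 100 in the media control on the left and the deoxycholic acid library on the right, with dashed lines at the borders of the rule. The Mpo-low cells lie at lower left, 666 in the control and 407 with deoxycholic acid, and run into their neighbours with no gap.

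Mpo-low cells formed a smaller share of the deoxycholic acid library. They were 7.35% of kept media control cells (interval 6.82 to 7.91) and 4.89% of those kept with deoxycholic acid (4.44 to 5.38), and the ratio of the shares was 0.666 (0.587 to 0.754). Mpo-high cells were 18.6% and 18.8%, a ratio of 1.01 (0.942 to 1.08). Ngp and Camp high cells were 5.91% and 3.35%, a ratio of 0.567 (0.489 to 0.656). Among cells with the primary granule sum, Mpo-low cells were 23.1% and 18.1%.

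The size of that difference moved with the border of the primary granule sum. With a border of 50 the shares were 12.1% and 10.5%, a ratio of 0.870, and with a border of 200 they were 1.49% and 0.361%, a ratio of 0.242 that rests on 135 and 30 cells. Without Ctsg, taking Elane, Mpo and Prtn3 of at least 70, an alternative chosen after seeing the data, the shares were 7.13% and 5.76%, a ratio of 0.808. The shares also turn on how much Mpo the cells hold. Over Mpo-low and Mpo-high cells together, the median Mpo level was 13.6 per 10000 in the control and 17.3 with deoxycholic acid, with lower quartiles of 7.21 and 9.50. Fewer Mpo-low cells and more Mpo RNA per cell cannot be told apart from these counts.

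Along Ngp and Camp, the share was lower in each of the 4 ranges fixed for the description. With Ngp and Camp below 5, Mpo-low cells were 1.16% and 0.493% of kept cells (105 and 41 cells), a ratio of 0.425 (0.289 to 0.616). From 5 to 15 they were 0.640% and 0.505% (58 and 42 cells), and the interval of the ratio, 0.517 to 1.19, included 1. From 15 to 50 they were 2.12% and 1.33% (192 and 111 cells), a ratio of 0.630 (0.494 to 0.800). From 50 to 150 they were 3.43% and 2.56% (311 and 213 cells), a ratio of 0.746 (0.624 to 0.891). When Mpo-low and Mpo-high cells were counted together, the ratios in the same ranges lay closer to 1, at 0.874, 1.04, 0.963 and 0.848.

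**Figure D2:**
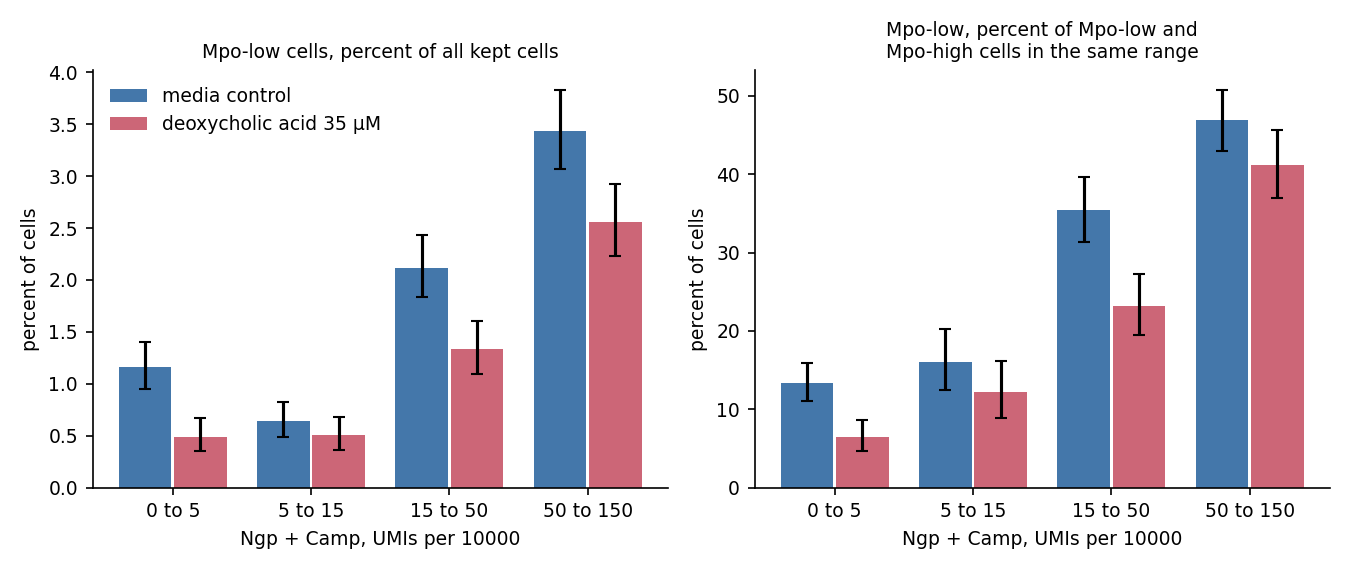
Mpo-low cells by range of Ngp plus Camp (UMIs per 10000) in the control (blue) and the deoxycholic acid library (red), as percent of kept cells (left) and of Mpo-low and Mpo-high cells in the same range (right). Bars are 1 library each and error bars are exact 95% binomial intervals. Both panels show lower bars with deoxycholic acid in every range, and at 0 to 5 the left bars stand at 1.16% and 0.493%.

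The Mpo-low cells differed widely among themselves along Ngp and Camp. Most of the genes described here ran the same way in both libraries, while Kit and Myb did not. Elane was 2929 and 3241 CPM in the lowest range and 6779 and 6567 CPM in the highest. Ctsg ran the other way, from 5523 and 4233 CPM in the lowest range to 3061 and 2208 in the highest. Prtn3 moved little, between 4654 and 5668 CPM over the 4 ranges and both libraries. The cells with least Ngp and Camp thus had more Ctsg than Elane UMIs, and the cells with most had more Elane than Ctsg UMIs, a comparison of UMIs that is not corrected for length. The rule sets a minimum on the sum of these genes and keeps Mpo low. A cell low in Elane could thus be chosen only with enough Ctsg or Prtn3, so these courses are in part set by the choice of cells.

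S100a8, a calcium-binding subunit of calprotectin and a gene of maturing neutrophils, went from 7546 and 12048 CPM to 48028 and 59774. Cebpe, which encodes C/EBP epsilon, stood at 77.0 and 111 CPM in the lowest range and 345 and 319 in the highest. The stefin Stfa1, a cytosolic inhibitor of cysteine proteases, went from 297 and 389 to 2617 and 3834 CPM, and its relative Cstdc5 from 153 and 155 to 3927 and 4593. Lcn2, the secondary granule protein lipocalin 2, went from 759 and 848 to 2178 and 2199 CPM.

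Several genes picked after their values were seen were lower in the highest of these ranges, and others were not. Npm1, a nucleolar protein of ribosome assembly, went from 3615 and 2755 CPM to 1272 and 1145. Ifitm1, an interferon-induced membrane protein, went from 1741 and 1617 to 324 and 246 CPM. S100a10, the annexin A2 partner, went from 432 and 327 to 80.4 and 58.0. Hpgd, the prostaglandin-degrading dehydrogenase, was 128 and 74.2 CPM in the lowest range and 0.946 CPM in the control and 0 UMIs in the deoxycholic acid library in the highest. The proliferation marker Mki67 was instead higher there, at 180 and 158 CPM in the lowest range and 263 and 337 in the highest. Kit, the stem cell factor receptor, was 14.99 and 10.4 CPM in the lowest range and 11.4 and 26.2 in the highest, so that the 2 libraries ran opposite ways. S100a10, Stfa1, Cstdc5 and Hpgd were picked for this description after their values were seen.

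**Figure D3:**
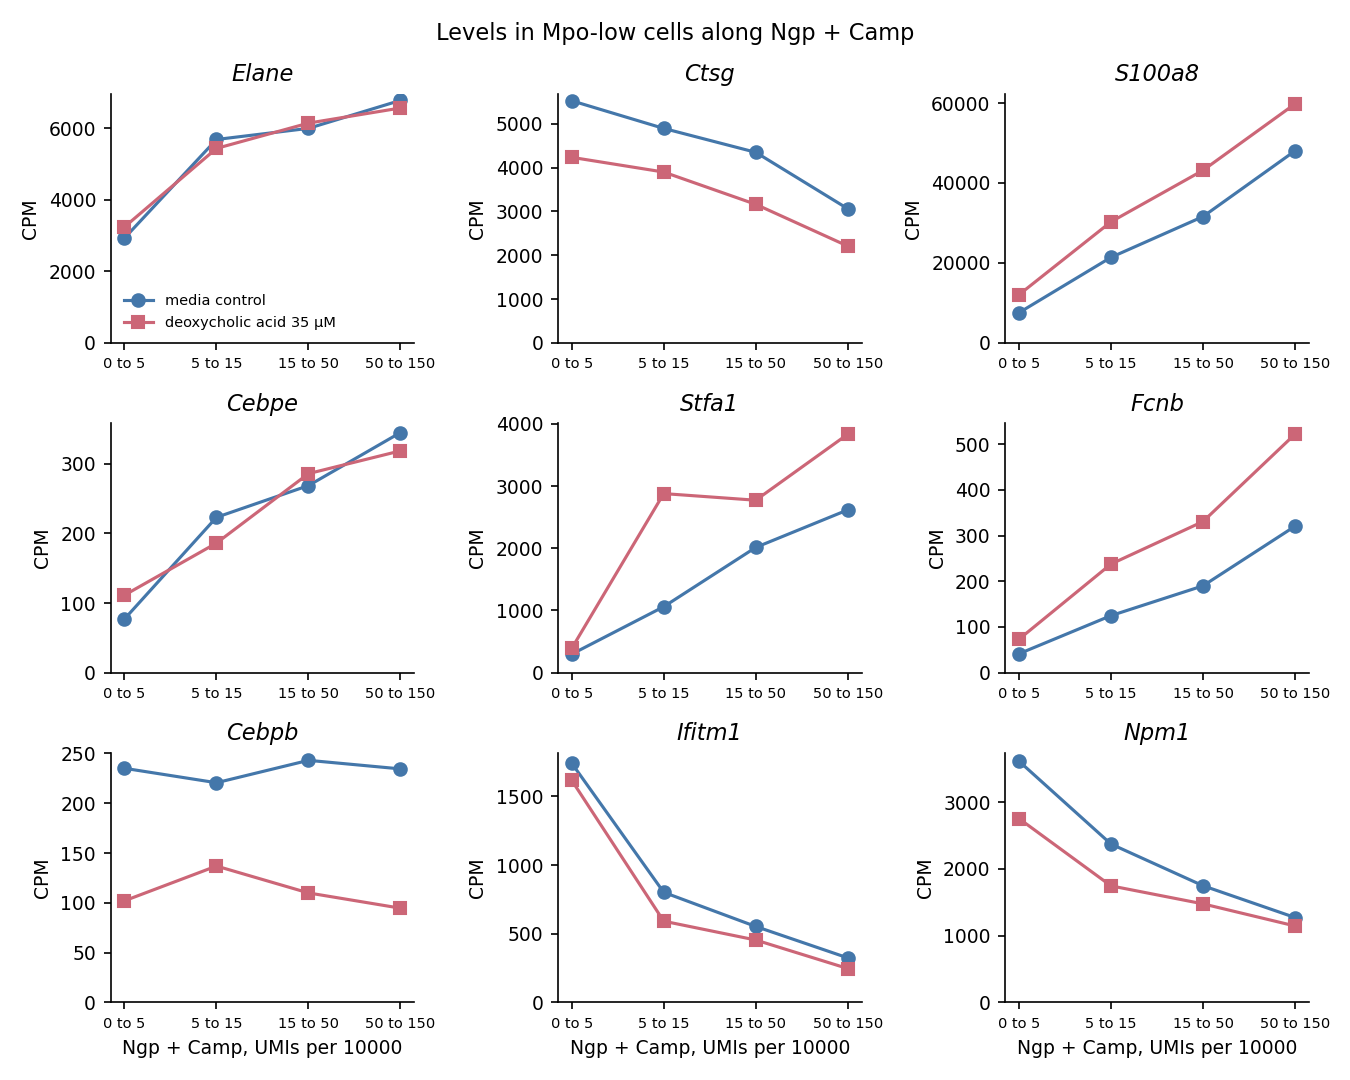
Level in CPM of 9 genes in Mpo-low cells by range of Ngp plus Camp (UMIs per 10000), 1 summed value per library and range, media control in blue circles and deoxycholic acid in red squares. Elane, S100a8, Cebpe, Stfa1 and Fcnb are higher in the highest range than in the lowest, and Ctsg, Ifitm1 and Npm1 are lower, while Cebpb is lower with deoxycholic acid in every range.

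Some genes stood higher in Mpo-low than in Mpo-high cells, and others lower. Among 4252 genes outside the rule, these were picked for the largest ratios seen in both libraries, so the values are a description. Cstdc4, a stefin-like inhibitor, was 1165 and 1310 CPM in Mpo-low and 331 and 385 in Mpo-high cells. Mpo-low cells with Ngp and Camp below 15 had 237 and 404 CPM of it. The stefin Stfa2 had no common direction, with 15.4 against 37.9 CPM in the control and 33.9 against 24.9 in the other library. Lgals3, galectin 3, was 448 and 387 CPM against 192 and 187. Lpl, lipoprotein lipase, was 35.8 and 30.1 CPM against 12.1 and 13.2. Mpo-low cells with Ngp and Camp below 5 had 14.3 and 19.7 CPM of Lpl, and those from 5 to 15 had 44.0 and 45.6. Il1r2, the decoy receptor of interleukin 1, was 148 and 147 CPM against 75.3 and 79.7. On the other side, Kit, the stem cell factor receptor of early progenitors, was 12.3 and 21.7 CPM in Mpo-low and 39.4 and 56.5 in Mpo-high cells. Thbs1, thrombospondin 1, was 131 and 130 CPM against 267 and 271.

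Markers of most other blood and feeder cells were low in the Mpo-low cells, but those of the monocyte lineage were not. The monocyte lineage list summed to 1234 and 1275 CPM, of which Ly6c2 gave 900 and 957. In Mpo-high cells that list summed to 1299 and 1416 CPM. Of 7 T and natural killer cell markers 6 had no UMI in either library, and the list summed to 0.417 and 0.385 CPM. Of 9 feeder markers 5 had none, with sums of 1.19 and 0.771 CPM. Of 10 erythroid markers 7 had none, with sums of 16.4 and 17.6 CPM, nearly all from Car2. Of 7 B cell markers 4 had none, with sums of 16.8 and 15.8 CPM, nearly all from Cd79b. The 7 megakaryocyte markers summed to 18.3 and 16.1 CPM with 2 at 0, and the 8 dendritic cell markers to 10.00 and 8.74 CPM with 3 at 0. The macrophage list summed to 461 and 401 CPM, of which Lgals3 gave 448 and 387, and the mature neutrophil list to 241 and 248 CPM. The sums for eosinophils were 52.6 and 25.6 CPM and those for basophils and mast cells 90.0 and 64.6 CPM.

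Some of those last UMIs came from single cells. Prg2, the eosinophil major basic protein, had 353 of its 415 control UMIs in 1 Mpo-low cell, and 8 UMIs in all in the deoxycholic acid library. Its log2 ratio was −4.59 (−5.81 to −3.59), and −2.26 (−3.76 to −1.05) without the cell with most Prg2 in each library. Prss34, a basophil protease, had 175 of its 179 control UMIs in 2 cells and 1 UMI with deoxycholic acid. Hpgd had 376 of its 563 control UMIs in 11 cells, 10 of them with Ngp and Camp below 15, and 64 of its 65 deoxycholic acid UMIs in 4 such cells. Stfa2, a stefin, had 212 of its 264 deoxycholic acid UMIs in 3 cells. Ratios for these genes describe a few cells.

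Between the libraries, Mpo-low cells held 4366 genes that reached 20 CPM and 50 UMIs in the library where they were higher, called measured here. A gene was counted as higher or lower with deoxycholic acid when its log2 ratio over the media control reached 0.5, a ratio of 1.414. By that mark 149 of the 4366 genes (3.41%) were higher and 216 (4.95%) were lower. The counts given below for each gene list are to be read beside these shares, and no list was tested against them. The median log2 ratio was −0.02, and 95% of the genes lay between −0.65 and 0.55. Shorter transcripts leaned lower: over the 4345 measured genes with a GENCODE length, Spearman's rho across genes between length and log2 ratio was 0.30, with medians of −0.13 and 0.06 in the shortest and the longest of 3 equal groups. Genes are not independent, and the part of length in single ratios was not tested.

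**Figure D4:**
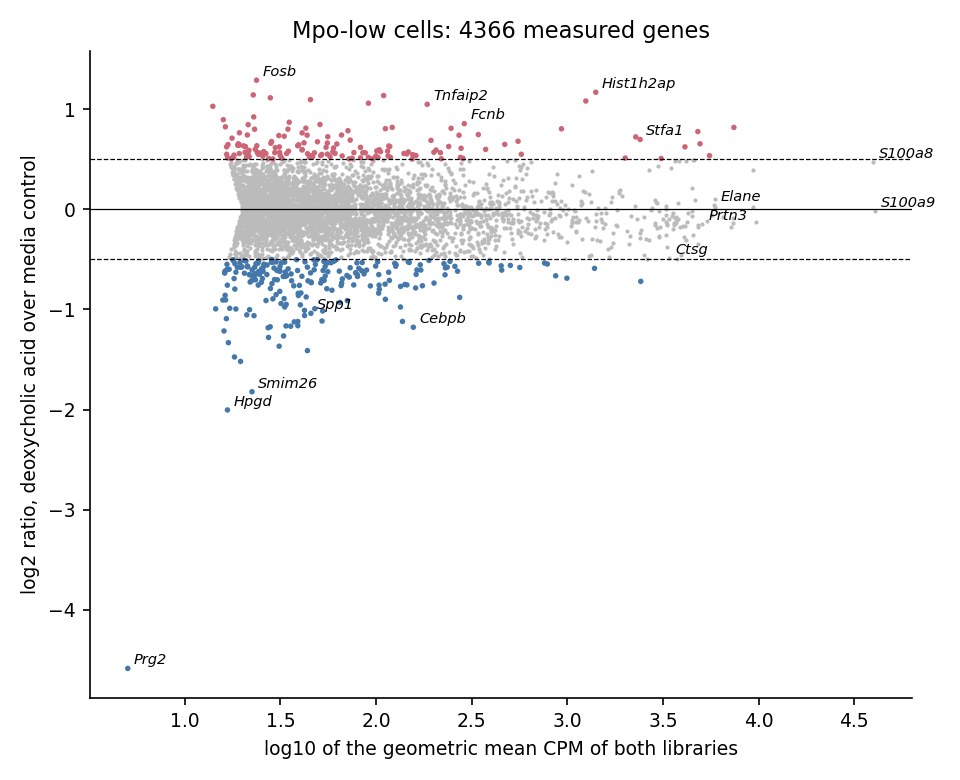
Log2 ratio of deoxycholic acid over media control in Mpo-low cells against the log10 of the geometric mean CPM, for the 4366 measured genes, with dashed lines at 0.5 and −0.5. Red points are the 149 higher and blue points the 216 lower genes; Hist1h2ap, Tnfaip2 and Fcnb stand above, Cebpb and Spp1 below, and Prg2, whose UMIs lie mostly in 1 cell, far below.

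Of the 4 primary granule genes that chose the cells, Ctsg differed most. It stood at 4039 CPM (4009 to 4070) in the control library and 2875 (2838 to 2913) with deoxycholic acid, a log2 ratio of −0.49 (−0.51 to −0.47), just short of the mark. Its ratio was negative in every range of Ngp and Camp, from −0.33 to −0.47, and it was −0.45 in Mpo-high cells and −0.35 in kept cells below the primary granule sum. Prtn3 was 5351 and 4832 CPM and Elane 5776 and 5960 CPM, log2 ratios of −0.15 and 0.05. Srgn, serglycin, the proteoglycan that packs granule proteases, was 2660 and 2176 CPM, a log2 ratio of −0.29. Among the 12 measured members of the primary granule list none was lower by the mark, and the median over 13 members with at least 5 CPM was 0.01, beside −0.00 over the 7985 genes at that level. Since the rule sets a sum over 4 of these genes, their ratios are in part set by the choice of cells.

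Fcnb was higher with deoxycholic acid, at 389 CPM (376 to 403) against 215 (208 to 222), a log2 ratio of 0.86 (0.79 to 0.93). It was higher in each range of Ngp and Camp, at 73.0 against 41.2 CPM in the lowest, 238 against 125 and 331 against 190 in the middle, and 522 against 320 in the highest. The ratio was 0.65 in Mpo-high cells, 0.78 in Ngp and Camp high cells and 0.34 in kept cells below the primary granule sum. Whether these sets differ in their ratio was not tested. Orm1 had a log2 ratio of 0.19 (0.10 to 0.27) and Nkg7 of −0.08 (−0.18 to 0.03), both far from the mark.

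The secondary granule genes stayed close to each other in both libraries. Of 14 measured members none reached the mark in either direction, and the median was 0.10. The rule caps Ngp, a member of this list, together with Camp, so this closeness is in part set by the choice of cells. How far that holds for the other members was not tested. Lcn2 was 1636 and 1782 CPM, and Chil3, a chitinase-like lectin, 2886 and 3020. Among late neutrophil genes, 1 of 10 measured was higher and 1 lower. The higher was Wfdc21, an antimicrobial whey acidic protein, at 1681 and 2398 CPM. The lower was Trem3, an activating receptor of myeloid cells, at 188 and 95.7 CPM, a log2 ratio of −0.98 (−1.09 to −0.86).

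The calprotectin subunits came apart. S100a8 was 33636 CPM in the control library and 46761 with deoxycholic acid, a log2 ratio of 0.48, while S100a9, its partner in the heterodimer, was 40791 and 40398 CPM, a log2 ratio of −0.01. In Ngp-poor cells, below 5, S100a8 was 0.68 higher on the log2 scale and S100a9 0.11 higher. In the highest range S100a8 was 0.32 higher and S100a9 was −0.19. Stfa1 was 1886 and 3060 CPM, a log2 ratio of 0.70, and passed the mark, while Stfa2l1, at 137 and 153 CPM, did not. From the lowest to the highest range of Ngp and Camp the Stfa1 ratio was uneven, at 0.39, 1.44, 0.46 and 0.55. Of its UMIs, 97.5% and 98.4% lay in 264 and 201 cells. Stfa2 passed the mark at 1.14, but its direction turned in 6 alternatives. It was −0.55 without the highest 6% of Scrublet scores and −1.38 with cells thinned to 5000 UMIs.

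Cebpb had the largest difference among the granulocyte transcription factors. This bZIP factor, known for driving granulocyte production under stress, stood at 236 CPM (228 to 243) in the control library and 104 (97.1 to 112) with deoxycholic acid, a log2 ratio of −1.18 (−1.29 to −1.07). It was lower in all 4 ranges of Ngp and Camp, with 235 against 102, 221 against 137, 243 against 110 and 235 against 94.6 CPM. The ratio was −1.04 in Mpo-high cells, −1.20 in Ngp and Camp high cells and −0.88 in kept cells below the primary granule sum. The other 15 measured factors did not reach the mark, and the median of the 16 was −0.13. Cebpe was 264 and 272 CPM, Spi1 231 and 221, and Cebpd 96.4 and 81.2. Myb, a progenitor factor named here after its values were seen, was 98.8 and 44.0 CPM in the lowest range of Ngp and Camp and 69.5 and 65.6 in the highest, and its overall log2 ratio was −0.36.

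Since the vitamin D receptor is named in the title of the series, a list of genes named as its targets was read as well. Whether each member, Camp among them, is a target in mouse cells was not checked. Vdr itself had 2 UMIs in the control and 0 with deoxycholic acid, a count of 0 that allows up to 0.385 CPM. Of 4 measured members 2 were lower, Cebpb and Spp1, and none higher, beside 4.95% and 3.41% of all measured genes. Whether the list as a whole leaned lower depended on the measure and on the cells. The median of its 5 members with enough UMIs was 0.20, and 3 of them lay above 0. The list summed to 1123 CPM in the control and 1183 with deoxycholic acid. Most of that sum was Camp, a gene of the cell choice, with 781 and 998 CPM. The sum is therefore no measure of the other members. Summed per cell, the list had a median of 5.875 and 4.123 UMIs per 10000. The list median was −0.49 in Mpo-low cells with Ngp and Camp below 15 and 0.11 in those from 15 to 150. It was −0.22 in Mpo-high and −0.30 in Ngp and Camp high cells. In both of those sets the median was the ratio of Camp itself. The cell choice used Camp, the cathelicidin gene, so these medians are in part set by the choice of cells. In Mpo-low cells Camp had a log2 ratio of 0.35. Spp1, osteopontin, a secreted phosphoprotein of macrophages and bone, was 65.5 and 31.9 CPM, a log2 ratio of −1.04 (−1.24 to −0.84). It was lower in each range of Ngp and Camp, by 163 against 90.4 CPM in the lowest and 35.4 against 20.2 in the highest, and its ratio was −0.78 in Mpo-high cells. Cdkn1a, the cell cycle inhibitor p21, was 25.8 and 29.6 CPM.

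Immediate early genes, whose transcripts appear within minutes of a stimulus, and Kruppel-like genes formed the list with the highest median among those described. Of 12 measured members 5 were higher and none lower, beside 3.41% and 4.95% of all measured genes. The median of 16 members was 0.32, but the rise was not uniform, with 9 of them above 0 and 7 below. Fosb, a partner of Jun in the AP-1 factor, was 15.2 and 37.1 CPM, a log2 ratio of 1.29 (1.04 to 1.54). Jun was 265 and 444 CPM and Fos 93.6 and 145, log2 ratios of 0.75 and 0.63. Klf10, a zinc finger factor induced by TGF-beta, was 19.0 and 41.2 CPM, a log2 ratio of 1.11 (0.89 to 1.34), and was higher in each range of Ngp and Camp. Dusp1, a phosphatase of MAP kinases, was 26.2 and 45.7 CPM. Ier2 moved little, at 116 and 112 CPM (log2 ratio −0.04). In Mpo-high cells the median of the list was 0.33, and in Ngp and Camp high cells 0.09.

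Replication-dependent histone genes, transcribed in S phase and mostly without a poly(A) tail, gave 12 higher and 1 lower of 29 measured members, with a median of 0.28 over 32. Hist1h2ap was 939 and 2112 CPM, a log2 ratio of 1.17, and Hist1h4h 73.9 and 163 CPM, a log2 ratio of 1.14. Hist1h1b, a linker histone, was 857 and 789 CPM and Hist1h2ae 479 and 648. Summed per cell, the list had a median of 38.6 per 10000 UMIs in the control and 54.6 with deoxycholic acid. Histone copies are nearly alike in sequence, so the split of UMIs between members is uncertain. The median was also 0.26 in Mpo-high and 0.13 in Ngp and Camp high cells.

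Few other genes of the cell cycle reached the mark. Of 17 measured S phase genes none was higher and 1 lower, with a median of −0.00. The lower one was Pcna, the sliding clamp of DNA polymerase, at 150 and 91.9 CPM, a log2 ratio of −0.71. Of 21 measured G2 and M phase genes none was higher and 1 lower, with a median of 0.06 and 14 ratios above 0. Their sum had a median per cell of 45.6 and 59.9 UMIs per 10000, and that of the S phase genes 13.1 and 12.7. That one was Cdk1, the mitotic kinase, at 97.2 and 51.6 CPM, while Mki67 was 229 and 281 CPM. Hmgb2, an abundant chromatin protein of dividing cells, was 3071 and 4307 CPM, a log2 ratio of 0.49. The whole G2 and M phase list summed to 5168.8 and 6366.5 CPM. A single gene as abundant as Hmgb2 can carry a change in such a sum, so the higher sum is not a rise of most members.

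Growth factor receptors, with 4 measured, and early progenitor genes, with 3 measured, gave 1 called gene between them, Kit, which is in both lists. Of all measured genes 3.41% were higher and 4.95% lower. Kit was 12.3 and 21.7 CPM, a log2 ratio of 0.82 (0.52 to 1.13), from 206 and 169 UMIs. With each cell thinned to 5000 UMIs before the cells were chosen, its ratio was −0.05. Csf2ra, a chain of the GM-CSF receptor, was 80.5 and 87.5 CPM.

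Among NF-kappaB and cytokine genes, 1 of 7 measured was higher and 1 lower. Tnfaip2, a gene induced by tumour necrosis factor, was 129 and 266 CPM, a log2 ratio of 1.05 (0.96 to 1.14), and it was higher in each range of Ngp and Camp. The lower one was Ccl3, a chemokine, at 36.9 and 21.3 CPM, a log2 ratio of −0.79 (−1.05 to −0.54). Nfkbia, the inhibitor I-kappaB alpha, was 336 and 250 CPM, a log2 ratio of −0.43 that did not reach the mark. Of 19 measured glycolysis and hypoxia genes 2 were higher and none lower, with a median of 0.03. Hk2, hexokinase 2, was 84.6 and 148 CPM, and Bnip3, a mitophagy receptor induced by low oxygen, 69.4 and 99.2. The median of that list was 0.22 in Mpo-high and 0.38 in Ngp and Camp high cells. Of 16 measured antioxidant genes 2 were lower, Prdx1 and Sod2, with Sod2, mitochondrial superoxide dismutase, at 138 and 77.2 CPM.

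**Figure D5:**
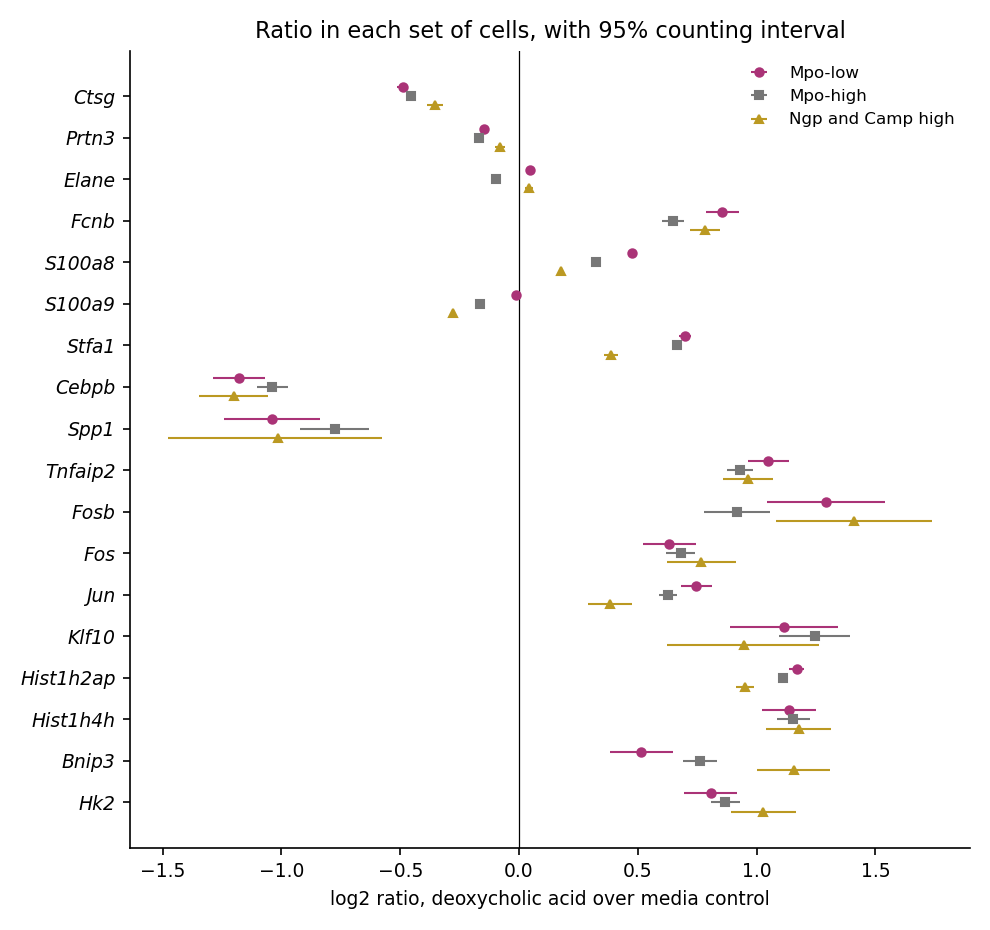
Log2 ratio of deoxycholic acid over media control for 18 genes in Mpo-low (circles), Mpo-high (squares) and Ngp and Camp high cells (triangles), with 95% counting intervals as bars. Fcnb, Stfa1, Tnfaip2 and the histones lie to the right of 0 and Ctsg, Cebpb and Spp1 to the left in all 3 sets, which come from the same 2 libraries.

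Cytosolic ribosomal proteins and nuclear-encoded respiratory chain subunits leaned lower by small amounts, and mitochondrially encoded genes did not. Of 29 cytosolic ribosomal proteins 27 had a log2 ratio below 0, with a median of −0.16, and 1 reached the mark. It was Rpl9, at 3106 and 1886 CPM, a log2 ratio of −0.72, and its copy Rpl9-ps6 had −1.22. The small proteins Rps29, at 5590 and 9859 CPM, and Rpl38, at 3676 and 6300 CPM, outside the list, were higher by 0.82 and 0.78. Those 3 ratios were −0.70, 0.77 and 0.72 in kept cells below the primary granule sum. Mitochondrial ribosomal proteins had a median of −0.18 and 1 lower of 18, Mrps28. Respiratory chain subunits had a median of −0.09 and 1 lower of 24, Sdhd, an anchor of succinate dehydrogenase, at 50.9 and 21.2 CPM. Of 12 measured mitochondrially encoded genes 2 were higher, mt-Nd3 at 437 and 699.6 CPM and mt-Atp8 at 238 and 339 CPM, and none lower. The median of that list was 0.06, and mt-Co1, a subunit of cytochrome c oxidase, was 4187 and 4851 CPM.

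Most of the largest ratios were of like size in other cells. Of the 12 largest negative ones, Smim26, Washc3, Med31, Srsf9, Mrps28, Unc50, Dynlt1f, Sdhd, Rpl9-ps6 and Hacd2 ranged from −1.82 to −1.18 in Mpo-low cells, and had −0.95 to −1.60 in kept cells below the primary granule sum. Smim26, a small membrane protein, was 42.3 and 11.95 CPM in Mpo-low cells, a log2 ratio of −1.82, and −1.60 in those other cells. Prg2 and Hpgd differed more, with −4.59 and −2.00 in Mpo-low cells and −0.63 and −0.61 in those other cells. Among the 12 largest positive ones, Gm10076, Dleu2, Hist1h2br, Hist1h2ai, Hist1h3b and Trmt10a ranged from 0.90 to 1.10, and had 0.64 to 1.08 in those other cells. Hist1h2ap and Hist1h4h had 1.17 and 1.14 in Mpo-low cells and 0.98 and 0.99 in the others. Fosb, Klf10 and Tnfaip2 had 1.29, 1.11 and 1.05 in Mpo-low cells and less in the others, 0.83, 0.76 and 0.75. Stfa2 went from 1.14 to −0.11. Gm10076, annotated as a pseudogene, was 859 and 1818 CPM, and reads from its parent gene cannot be told apart. All of these sets share the same 2 libraries, so a difference between the libraries and one between the cultures cannot be told apart.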

How the data were processed

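Per the labels' protocols, 8000 cells a sample were targeted for single-cell 3′ libraries (Chromium, version 3.1). The submitters' processing notes name Cell Ranger 6.0 but the genome build and any cell filter are not stated in the sources used here. The authors deposited raw UMI counts per gene and cell, not normalized, for 9346 and 8520 barcodes and 32285 genes. Kept cells numbered 9063 and 8321, with medians of 19168 and 14829 UMIs. For each set of cells, UMIs were added up per library and divided by their total. Ratios have exact binomial intervals. A gene at 0 in 1 library was set to 3 counts. Python 3.11.15, scipy 1.17.1, scanpy 1.11.5 (Scrublet) and edgeR 4.0.16 (TMM factors only) were used, and the ratio code was tested on simulated data. Lengths came from GENCODE vM21 by symbol, for 99.5% of measured genes. Named genes were those of the cell choice, its markers, the 12 largest ratios each way and the 4 highest of each list; others were picked after their values were seen. The cell rule and all lists were chosen with earlier results of these data known. The edgeR tests planned for separate samples could not be run. No doublets were removed for the main values. Lithocholic acid cultures were not analysed here. The values of 1 primary granule list member are not reported here.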

Additional observations from a re-analysis of the deposited data

Results flagged for a closer look

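Stfa2 differed in direction between neighbouring sets of cells: its log2 ratio of deoxycholic acid over media control was 1.14 in Mpo-low cells and −0.61 in Mpo-high cells, with 15.4 and 33.9 CPM in the former and 37.9 and 24.9 CPM in the latter. The difference was not tested. Of its 264 deoxycholic acid UMIs in Mpo-low cells, 212 lay in 3 cells.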

How the results depend on the processing

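The share ratio of 0.666 stayed below 1 under all 14 alternatives run on it. It moved outside its counting interval with a primary granule sum of at least 50 (0.870) or 200 (0.242), and, in alternatives chosen after seeing the data, without Ctsg (0.808) or over cells with that sum (0.785). With each cell thinned to 5000 UMIs, which left out 669 and 651 kept cells, it was 0.701. Without the highest Scrublet scores, up to 6% of each library, it was 0.644. The counts of 149 higher and 216 lower genes became 81 and 664 at a sum of at least 200, 3716 and 1522 with no minimum on CPM and UMIs, 55 and 56 at 100 CPM and 200 UMIs, and 10 and 29 at a log2 ratio of 1, and thinning gave 349 lower. Except for these 9 counts, the other 33 stayed within 1.5 times. The median of primary granule genes, 0.01, became −0.061 with Mpo below 4, −0.056 with Mpo below 16, −0.083 at a sum of at least 200, −0.11 with thinning, −0.079 without Ctsg and −0.11 with Ngp and Camp from 15 to 150. That of secondary granule genes became −0.062 with Ngp and Camp below 300, and that of histones reversed to −0.064 at a sum of at least 200. The cause of these shifts was not tested. Stfa2 reversed from 1.14 to −0.52 with Mpo below 4, −0.13 with Mpo below 16, −1.13 with Ngp and Camp below 50, −1.38 with thinning, −0.55 without high Scrublet scores and −0.25 without cells rich in Prg2, Prss34, Hpgd or Stfa2. Prg2 became 0.0098 and Ly6a 0.46 at a sum of at least 200, and Kit −0.050 with thinning. The other genes recomputed kept their sign where they had reached 0.5. No paired analysis was possible because the cell names carry no replicate letter. Depth limits genes near 20 CPM, which rest on as few as 50 UMIs.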
